A study of Mus musculus with 6 samples.

Results

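Expression of 10 genes that restrain mitogen-activated protein kinase (MAPK) signalling was followed in regulatory CD4+ T cells (Treg) that had met either WT or HP1a KO conventional CD4+ T cells (Tconv) in vivo. The genes were taken by name from the deposited table of 29199 genes: the MAPK phosphatases Dusp1, Dusp2, Dusp4, Dusp5, Dusp6 and Dusp10, the Sprouty genes Spry1 and Spry2, and the Sprouty-related genes Spred1 and Spred2. All 10 passed the filter on low counts that left 18321 genes to test. Irradiated B6 mice had received a graft of B6 and semi-allogeneic B6D2F1 marrow in equal parts, together with naive Tconv and Treg, and Treg were sorted from their spleen 3 weeks later. In both groups the Treg were WT cells of B6 Foxp3-Thy1.1 mice that had been expanded ex vivo with IL-2, TGF-β and beads carrying anti-CD3 and anti-CD28. Only the Tconv differed: 3 libraries were made from Treg of hosts given WT Tconv and 3 from Treg of hosts given Tconv in which Hp1a, the gene of the heterochromatin protein HP1a (Cbx5 in the annotation), had been deleted. The deletion was made with CMV-cre, which is active in the germline and in all tissues, on a mixed 129/Sv and C57BL/6 background, and the WT Tconv came from littermates. The mice were male and 6 to 12 weeks old. The comparison therefore asks whether the genotype of the Tconv goes with a change in the Treg, which carry an intact gene themselves. No source used here states whether the libraries of a group came from separate mice. The p-values set the difference between groups against the spread between these libraries, which may therefore be technical.

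T cell receptor and IL-2 receptor signals reach the MAPK ERK through Ras, Raf and MEK, and stress and cytokine signals reach p38 and JNK through parallel cascades. Dual-specificity phosphatases take the phosphate off both the threonine and the tyrosine that switch a MAPK on, and many of them are themselves transcribed in response to the kinase they inactivate. Sprouty and Spred proteins act higher up, on the step from receptor to Ras and Raf, so that the whole group forms the negative feedback on the pathway.

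The libraries held between 87421755 and 119078882 estimated counts. Replicate 3 with WT Tconv stood apart. The summed level of 6 red cell markers was 5501 CPM (counts scaled to a library total of 1000000, for markers without TMM scaling) there against 370 to 688 CPM in the other libraries, and that of 8 neutrophil markers was 1847 CPM against 42.4 to 229.9 CPM. Replicate 2 with HP1a KO Tconv also stood apart from its group: chi-square per degree of freedom over genes was 142 and 177 in its pairs against 29.6 between the other 2 libraries, while replicate 3 with WT Tconv had 111 and 118.9 against 21.6. It had the lowest Foxp3 (158 CPM) and Il2ra (124 CPM) and the highest Tnfrsf18 (594 CPM), all Treg markers. No red cell or neutrophil marker was at 0 in a library. The summed T cell markers lay between 3362 and 3868 CPM and the 6 Treg markers between 3220 and 4064 CPM in all libraries. Of the Treg libraries, replicate 3 with HP1a KO Tconv had the lowest Treg marker sum, with the lowest Ctla4 (806 CPM) and Ikzf2 (1484 CPM), but also the highest Foxp3 (254 CPM) and Il2ra (201 CPM), the genes of the lineage factor and of an IL-2 receptor chain. Ctla4 was lower in each library with HP1a KO Tconv (1029, 1047 and 806 CPM) than in any with WT Tconv (1243, 1322 and 1093 CPM). The other Treg markers overlapped between the groups. Because these are bulk samples, fewer cells of a kind and less RNA per cell cannot be told apart. The part of these markers in the results was not tested, and the fold changes of the members are also given without replicate 3 with WT Tconv, as are those of the pathway genes that were highest in it.

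For the members whose levels separated the groups and whose promoter window begins outside annotated exons, the bases of the window up to the first annotated exon in it are shown, with Dusp6 as a phosphatase whose groups overlapped. The sequences are RefSeq windows (GRCm38.p6) that were found unchanged in GRCm39. The Dusp1 stretch is on the minus strand at chr17:26727507-26727696, that of Dusp5 on the plus strand at chr19:53517326-53517531, and that of Dusp6 on the plus strand at chr10:99098843-99099067. Longer annotated transcripts of Dusp1 and Dusp6 start further upstream, so these stretches lie within the span of their genes. Capitals mark matches to the motifs named below.
Dusp1: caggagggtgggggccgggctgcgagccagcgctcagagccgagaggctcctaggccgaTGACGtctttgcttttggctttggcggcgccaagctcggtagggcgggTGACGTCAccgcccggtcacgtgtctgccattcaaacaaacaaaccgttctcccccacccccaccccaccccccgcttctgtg
Dusp5: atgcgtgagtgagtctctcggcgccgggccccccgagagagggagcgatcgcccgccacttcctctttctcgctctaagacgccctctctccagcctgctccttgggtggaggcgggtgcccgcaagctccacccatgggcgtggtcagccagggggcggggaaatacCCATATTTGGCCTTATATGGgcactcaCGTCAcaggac
Dusp6: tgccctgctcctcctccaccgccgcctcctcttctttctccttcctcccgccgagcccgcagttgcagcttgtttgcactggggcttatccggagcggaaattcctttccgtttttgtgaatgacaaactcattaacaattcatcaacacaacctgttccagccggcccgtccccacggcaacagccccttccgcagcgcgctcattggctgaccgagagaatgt
Windows from 250 bases before to 50 bases after the RefSeq start were searched on both strands for the cAMP response element (CRE, TGACGTCA), its core of 5 letters (TGACG, which a full CRE also contains), the AP-1 site (TGAGTCA or TGACTCA), the Ets site CCGGAAGT, the Egr site GCGGGGGCG, the NFAT core TGGAAAA, the TATA box as TATAAA and the CArG box, which is bound by serum response factor. Windows were found for 9 of the 10 members, all but Dusp4. Dusp1 held a full CRE at position -143 from the start and a further core at -191. A full CRE was present in 1.79% of the 32851 windows of this length, and the core in 20.8%. Dusp5 held 2 CArG boxes side by side at -82 and -72 and a CRE core at -55. At least 1 CArG box was present in 1.63% of windows. The windows of Dusp6, Dusp10, Spry1, Spry2 and Spred1 held none of these motifs. Those of Dusp10 and Spry2 began inside annotated exons. The canonical transcripts of these genes start at -708 and -539 from the RefSeq start, upstream of the windows. The bases before those canonical starts were not searched. Dusp2 had an Egr site at -98, a motif found in 2.91% of windows, and a CRE core at 6, and Spred2 had a CRE core at -51. These are matches of letters, and binding was not measured.

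**Figure D1:**
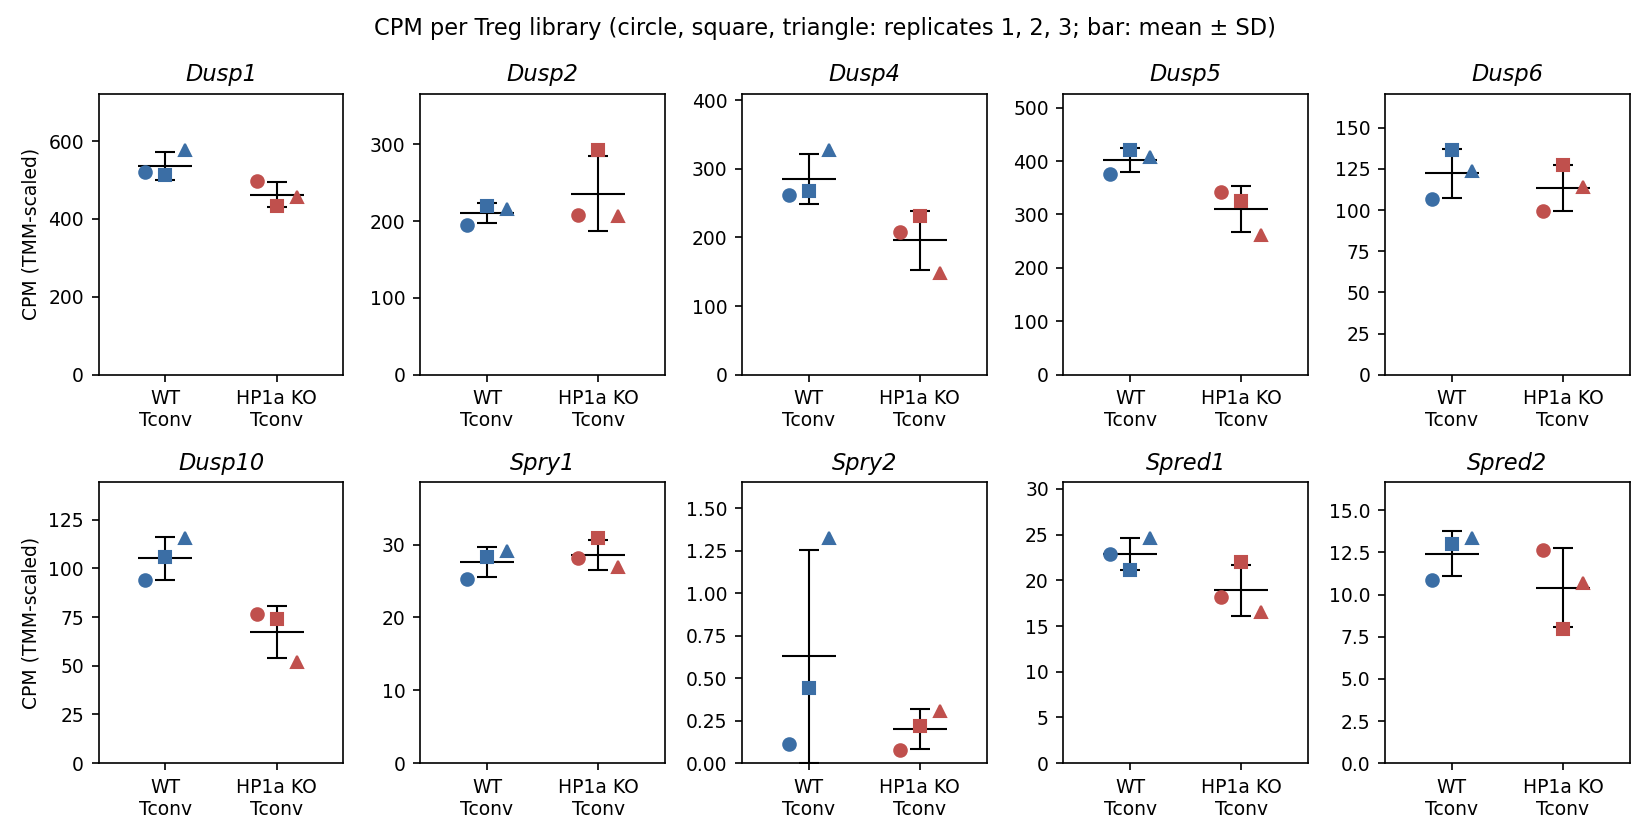
Each panel plots 1 gene: the vertical axis is the TMM-scaled level in CPM from 0, the horizontal axis the 2 groups, with 1 symbol per library and the mean ± SD of 3 libraries. The groups do not overlap for Dusp1, Dusp4, Dusp5 and Dusp10, and they do for the other members.

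In Treg with HP1a KO Tconv, 4 of the 6 phosphatases were lower in each library than in any library with WT Tconv, as were 11.6% of all genes tested: Dusp10, Dusp4, Dusp5 and Dusp1. None of the 10 members passed an adjusted p of 0.05 in the main test, edgeR's quasi-likelihood test with Benjamini-Hochberg adjustment over all 18321 genes, and neither did any other gene (0% of genes). DESeq2, the tool used in the study, called Dusp10, Dusp4 and Dusp5 lower at an adjusted p under 0.05, as it did 3.03% of the genes to which it gave one. With the further threshold of an absolute log2 fold change over 1, which the study's methods apply and which was added here after seeing the data, DESeq2 called 0 members and 16 of all genes. Spry1, Spred1, Spred2, Dusp1, Dusp2 and Dusp6 passed neither test, and Spry2, to which DESeq2 gave no adjusted p, did not pass edgeR's.

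Dusp10 encodes a phosphatase that acts mainly on p38 and JNK (chr1:183745499-183807842, plus strand, GRCm39, ENSMUSG00000039384). Its level was 93.9, 106 and 116 CPM in Treg with WT Tconv and 76.4, 73.9 and 52.0 CPM in Treg with HP1a KO Tconv. The highest library with HP1a KO Tconv thus lay below the lowest with WT Tconv, and replicate 3 of each group was the farthest from the other group. The level with HP1a KO Tconv was 64.1% of that with WT Tconv, a log2 fold change of -0.64 ± 0.16 (SE, n = 3 per group) with a 95% interval from -1.01 to -0.27. The adjusted p was 0.209 with edgeR and 0.00195 with DESeq2. The log2 fold change was -0.57 without replicate 3 with WT Tconv and -0.48 without replicate 3 with HP1a KO Tconv. DESeq2's adjusted p rose past 0.05 without replicate 2 with WT Tconv (0.0518, log2 fold change -0.64) and without replicate 3 with WT Tconv (0.0621, log2 fold change -0.57).

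Dusp4, an inducible nuclear phosphatase of ERK, JNK and p38, lies at chr8:35274442-35287048 on the plus strand (ENSMUSG00000031530). It was measured at 261, 267 and 328 CPM with WT Tconv and at 208, 231 and 148 CPM with HP1a KO Tconv. Again no value of one group reached into the other, the highest library was replicate 3 with WT Tconv and the lowest replicate 3 with HP1a KO Tconv. The level was 68.5% of that with WT Tconv, with a log2 fold change of -0.55 ± 0.18 (SE) and a 95% interval from -0.98 to -0.11. edgeR's adjusted p was 0.266 and DESeq2's 0.0193. The log2 fold change was -0.43 without replicate 3 with WT Tconv, the library with the red cell and neutrophil markers, and -0.38 without replicate 3 with HP1a KO Tconv. The DESeq2 call was lost, with an adjusted p between 0.0704 and 0.1997, when any library other than replicate 2 with HP1a KO Tconv was left out. The DESeq2 log2 fold change was then -0.61 without replicate 1 with WT Tconv and -0.59 both without replicate 2 with WT Tconv and without replicate 1 with HP1a KO Tconv.

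Dusp5, a nuclear phosphatase specific for ERK, lies at chr19:53517532-53530862 on the plus strand (ENSMUSG00000034765), just downstream of the paired CArG boxes shown above. It reached 376, 421 and 407 CPM with WT Tconv and 343, 326 and 262 CPM with HP1a KO Tconv. All 3 libraries with HP1a KO Tconv were below those with WT Tconv, replicate 3 by the widest margin. The level was 77.2% of that with WT Tconv, a log2 fold change of -0.37 ± 0.11 (SE, 95% interval -0.62 to -0.13). The adjusted p was 0.220 with edgeR and 0.0370 with DESeq2. In DESeq2 the call held without replicate 1 (0.0208) or replicate 2 (0.0137) with HP1a KO Tconv. It was lost without replicate 1 (0.0921), 2 (0.1898) or 3 (0.1650) with WT Tconv and without replicate 3 with HP1a KO Tconv (0.0661). DESeq2's log2 fold change was then -0.42, -0.34 and -0.37 without replicates 1, 2 and 3 with WT Tconv and -0.26 without replicate 3 with HP1a KO Tconv, and edgeR's was -0.36 without replicate 3 with WT Tconv. The call was also lost with a correction for GC content (0.0690), an alternative chosen after seeing the data, while the log2 fold change was then -0.39.

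Dusp1 encodes an immediate-early nuclear phosphatase with p38, JNK and ERK as substrates (chr17:26724564-26781102, minus strand, ENSMUSG00000024190), and its upstream stretch holds the CRE shown above. Its level was 521, 512 and 578 CPM with WT Tconv and 497, 433 and 456 CPM with HP1a KO Tconv. The groups did not overlap, but replicate 1 with HP1a KO Tconv came close to the lowest library with WT Tconv. The level was 86.1% of that with WT Tconv, a log2 fold change of -0.22 ± 0.08 (SE, 95% interval -0.40 to -0.03). Neither edgeR (adjusted p = 0.291) nor DESeq2 (adjusted p = 0.177) called it.

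The other 2 phosphatases overlapped between the groups. Dusp2, a nuclear phosphatase induced in activated lymphocytes (chr2:127177957-127180296, plus strand, ENSMUSG00000027368), was at 195, 219.7 and 216 CPM with WT Tconv and at 208, 293 and 206 CPM with HP1a KO Tconv. Replicate 2 with HP1a KO Tconv was the highest of the 6 libraries and the other 2 of its group lay within the range with WT Tconv. The log2 fold change was 0.17 (95% interval -0.17 to 0.50, edgeR adjusted p = 0.632) and turned to -0.02 without that library, while it was 0.19 without replicate 3 with WT Tconv and reached 0.26 without replicate 1 and 0.25 without replicate 3 with HP1a KO Tconv. Dusp6, the cytoplasmic phosphatase of ERK (chr10:99086564-99103361, plus strand, ENSMUSG00000019960), was at 106, 137 and 124 CPM with WT Tconv and at 99.2, 127 and 114 CPM with HP1a KO Tconv. Both ranges largely coincided, and the log2 fold change was -0.11 (95% interval -0.38 to 0.17, edgeR adjusted p = 0.713), and -0.10 without replicate 3 with WT Tconv. It was nearest 0 without replicate 2 with WT Tconv (-0.006) and without replicate 1 with HP1a KO Tconv (-0.005), and farthest without replicate 1 with WT Tconv (-0.18) and without replicate 2 with HP1a KO Tconv (-0.20). The interval of Dusp6 reaches down to the estimate of Dusp5, so that a change as large as that of Dusp5 in this other ERK phosphatase lies within the error.

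The inhibitors upstream of ERK were not called with all 6 libraries. Spred1, which brings the Ras GTPase-activating protein neurofibromin to the membrane (chr2:116951524-117018277, plus strand, ENSMUSG00000027351), was at 22.9, 21.1 and 24.6 CPM with WT Tconv and at 18.2, 21.99 and 16.6 CPM with HP1a KO Tconv. Replicate 2 with HP1a KO Tconv lay inside the range with WT Tconv and the other 2 below it. The log2 fold change was -0.27 ± 0.12 (SE), with an edgeR adjusted p of 0.344 and a DESeq2 adjusted p of 0.242. It was -0.22 without replicate 3 with WT Tconv. Without replicate 2 with HP1a KO Tconv it was -0.40, and DESeq2 then called it (adjusted p = 0.00741). With the correction for GC content, chosen after seeing the data, DESeq2's log2 fold change of Spred1 was -0.16 (adjusted p = 0.618), against -0.28 without the correction. Spred2, its close relative (chr11:19874355-19974442, plus strand, ENSMUSG00000045671), ranged from 10.9 to 13.3 CPM with WT Tconv and from 7.94 to 12.6 CPM with HP1a KO Tconv, with a log2 fold change of -0.25 (95% interval -0.65 to 0.15, edgeR adjusted p = 0.542) that was -0.20 without replicate 3 with WT Tconv. It moved to -0.09 without replicate 2 and to -0.40 without replicate 1 with HP1a KO Tconv.

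Spry1, a feedback inhibitor of receptor signalling to Ras (chr3:37693897-37698755, plus strand, ENSMUSG00000037211), was the member with the smallest difference. Its level was 25.3, 28.3 and 29.2 CPM with WT Tconv and 28.1, 30.9 and 26.9 CPM with HP1a KO Tconv, ranges that overlapped for the most part. The log2 fold change was 0.05, and its 95% interval from -0.15 to 0.25 leaves room for a change of either sign (edgeR adjusted p = 0.816). It was 0.09 without replicate 3 with WT Tconv, 0.007 without replicate 1 with WT Tconv and -0.006 without replicate 2 with HP1a KO Tconv. Spry2 (chr14:106128766-106136446, minus strand, ENSMUSG00000022114) was close to the detection limit, with 11, 43 and 155 counts with WT Tconv and 7, 22 and 27 counts with HP1a KO Tconv. The 155 counts of replicate 3 with WT Tconv correspond to 1.30 CPM before TMM scaling (95% exact Poisson interval 1.105 to 1.523, which covers counting error only), above the other 5 libraries, and the 11 counts of replicate 1 of the same group to 0.114 CPM (0.0570 to 0.204). Its log2 fold change of -1.65 had a 95% interval from -3.85 to 0.56 (edgeR adjusted p = 0.471), and it was -0.48 without replicate 3 with WT Tconv.

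**Figure D2:**
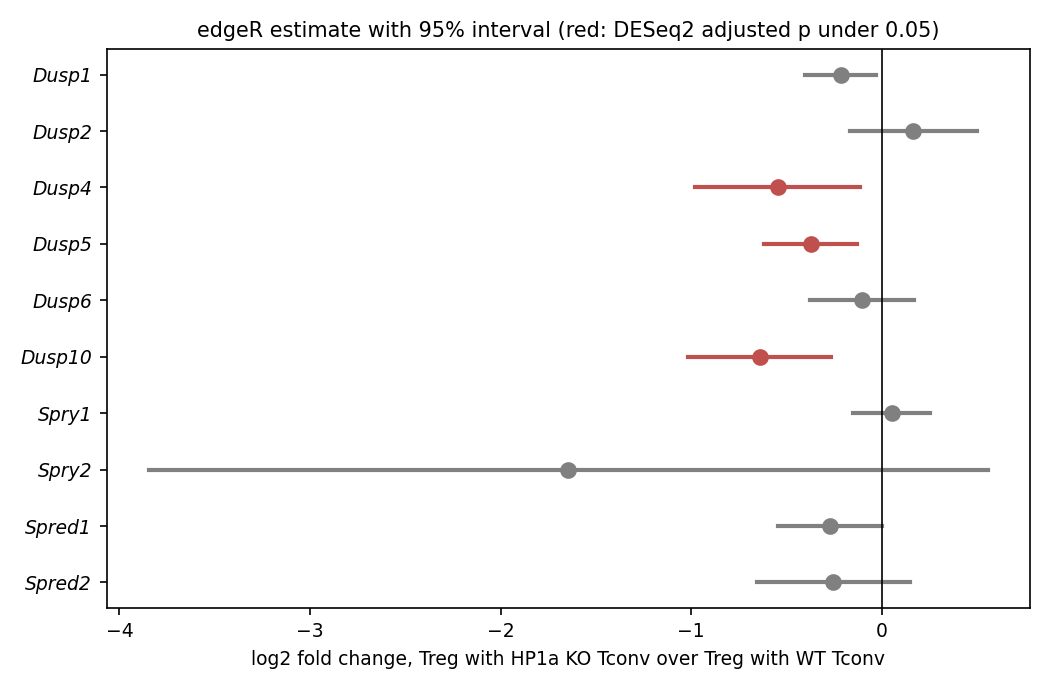
The horizontal axis is the log2 fold change of Treg with HP1a KO Tconv over Treg with WT Tconv from edgeR, with 1 gene per line, its 95% interval as a bar, and red for an adjusted p under 0.05 in DESeq2. The intervals of Dusp10, Dusp4, Dusp5, Dusp1 and, barely, Spred1 lie below 0, and that of Spry2 is the widest.

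Across the members, 8 log2 fold changes were below 0 and 2 above, with a median of -0.26, beside a median of -0.01 over all genes tested, of which 8890 were above and 9431 below 0. Among the phosphatases the median was -0.30 and among the 4 Sprouty and Spred genes -0.26. An unadjusted edgeR p under 0.05 with a lower level was found for 5 members (Dusp1, Dusp4, Dusp5, Dusp10 and Spred1), against 7.52% of all genes, and with a higher level for 0 members, against 6.98%. Groups that did not overlap were found for 4 members in the lower direction, against 11.6% of all genes, and for 0 in the higher direction, against 11.5%. DESeq2 gave an adjusted p to 12097 genes, among them 9 members. It called 3 of these lower, against 3.03% of the genes, and 0 higher, against 1.31%. The members were chosen with earlier results of these data known, so these counts beside the shares are a description and not a test.

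The members' highest library was replicate 3 with WT Tconv for 6 of 10, and the lowest was replicate 3 with HP1a KO Tconv for 4 of 10, namely Dusp4, Dusp5, Dusp10 and Spred1. Their summed level before TMM scaling was 1609, 1690 and 1805 CPM with WT Tconv and 1493, 1587 and 1305 CPM with HP1a KO Tconv. The same 2 libraries were thus at the ends of the sum. Leaving out each library in turn kept the 4 phosphatases below 0 in edgeR: Dusp10 between -0.73 and -0.48, Dusp4 between -0.68 and -0.38, Dusp5 between -0.44 and -0.26 and Dusp1 between -0.26 and -0.16. For Dusp10, Dusp4 and Dusp5 the value nearest 0 came without replicate 3 with HP1a KO Tconv, and for Dusp1 without replicate 3 with WT Tconv.

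**Figure D3:**
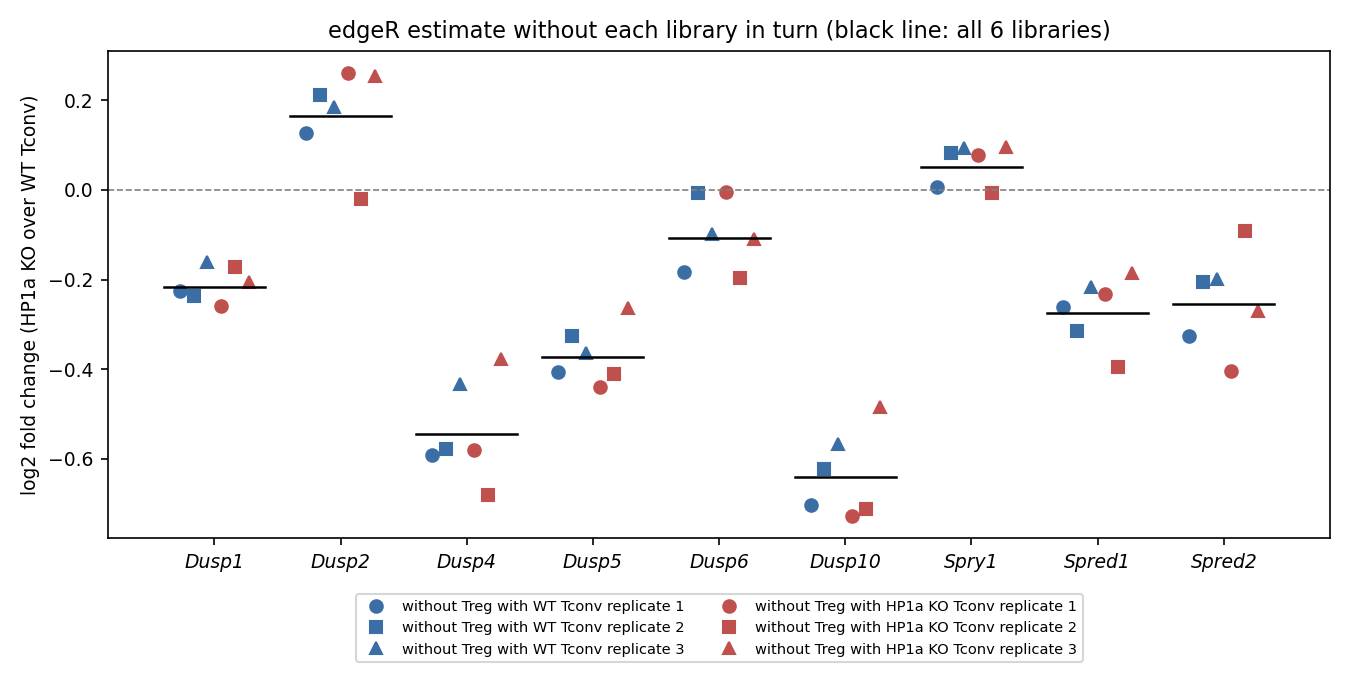
The vertical axis is the edgeR log2 fold change of 9 members, each without 1 library in turn (symbols) and with all 6 libraries (black line). Spry2, which ranges from -2.12 to -0.48, is left out for scale. The values of Dusp10, Dusp4, Dusp5 and Dusp1 stay below 0 without any one library, while Dusp2 and Spry1 cross 0 without replicate 2 with HP1a KO Tconv.

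For all members the libraries of a group differed by more than counting error. The 9 members other than Spry2 had between 793 and 67622 counts in a library, for which counting alone gives a coefficient of variation of 0.385% to 3.55%, while the libraries of a group differed with a coefficient of variation of 5.70% to 22.7%. For Dusp10 the latter was 10.3% with WT Tconv and 19.9% with HP1a KO Tconv, and for Dusp4 12.9% and 21.99%. For Spry2 it was 99.6% and 57.5%, beside 8.03% to 37.8% from counting alone. Annotated genes overlap the exons of some members on the opposite strand. 1700056E22Rik covers 17.9% of the main Dusp10 transcript and Gm50394 22.4% of that of Dusp5. They had at most 243 and 252 counts in any library. Whether reads of these genes were counted for Dusp10 or Dusp5 was not tested.

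Per transcript length the phosphatases were the more abundant branch of this feedback. The mean over the 6 libraries, in CPM per kilobase of the canonical transcript without TMM scaling, was 251 for Dusp1, 143 for Dusp5, 128 for Dusp2, 87.3 for Dusp4, 41.6 for Dusp6 and 24.5 for Dusp10. The inhibitors upstream of ERK followed, with 10.4 for Spry1, 3.30 for Spred1, 2.37 for Spred2 and 0.127 for Spry2. The mean of Dusp5 was above that of Dusp2 with WT Tconv (159.6 against 119.2) and below it with HP1a KO Tconv (127 against 138), but without replicate 2 with HP1a KO Tconv the latter means were 122.3 against 119.9. Library ranges overlapped between the neighbours Dusp5 and Dusp2, Dusp2 and Dusp4, and Spred1 and Spred2. All other neighbours in the order were separate in their library ranges with the canonical transcript as length. The order of the means over all libraries was the same with all annotated exons of a gene as its length. Dusp1 was then at 150, close to Dusp5 at 143, and library ranges are not given for that length.

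**Figure D4:**
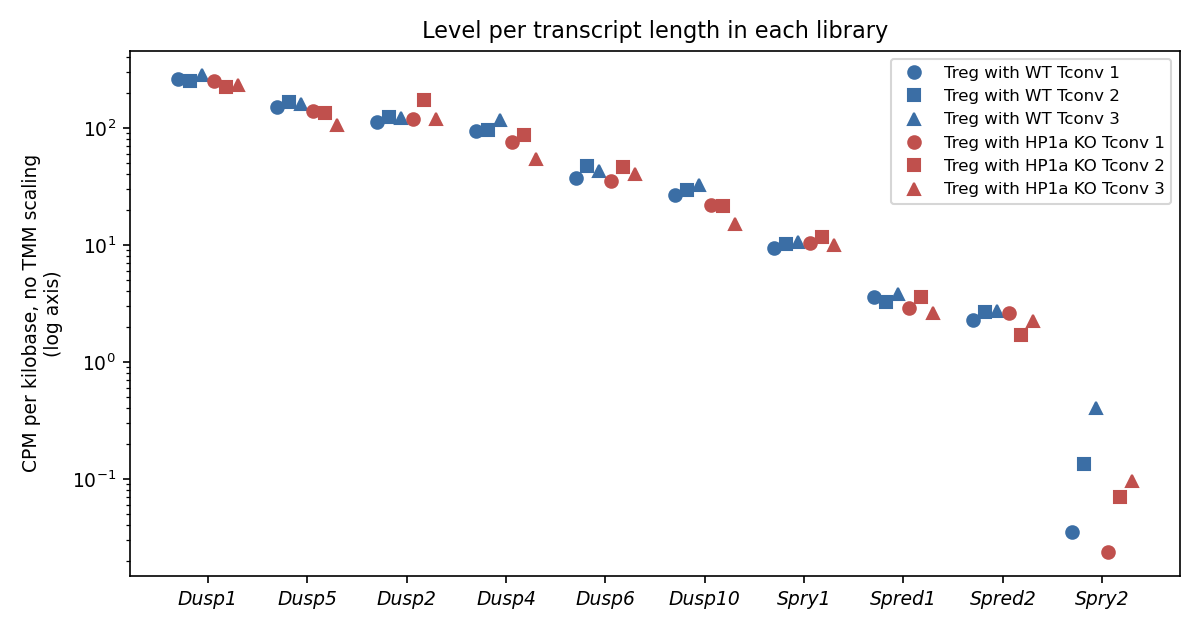
The vertical axis, which is logarithmic, is the level in CPM per kilobase without TMM scaling, with 1 symbol per library. Levels run from 251 for Dusp1 to 0.127 for Spry2, and the libraries of Dusp5, Dusp2 and Dusp4 overlap.

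The other genes of the pathway were taken from lists of 95 genes, of which 90 were tested. None passed edgeR's adjusted p, 9 had an unadjusted p under 0.05 with a higher level, against 6.98% of all genes, and 16 with a lower level, against 7.52%. DESeq2 gave no adjusted p to 13 of the 90 and called 2 higher, against 1.31% of all genes with an adjusted p, and 4 lower, against 3.03%. All 6 of these calls were lost without replicate 3 with WT Tconv (adjusted p between 0.0619 and 0.189), while their DESeq2 log2 fold changes were then -0.53 for Dusp16, -0.33 for Styx, -0.51 for Emp1, -0.49 for Map2k3, 0.34 for Rasa3 and 0.68 for Gadd45g. Of the named genes, only Egr1 was then called (0.00232). Over all 90 genes tested from these lists, the median edgeR log2 fold change with all 6 libraries was -0.01. Dusp26 and Spry3 were not analysed here, and Dusp13, Dusp15 and Epha4 had 45, 16 and 5 counts over all libraries and were not tested.

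Of the 15 other dual-specificity phosphatases tested, 9 were below and 6 above 0 and 2 were called lower by DESeq2. Dusp16, which like Dusp10 acts mainly on JNK and p38, was at 16.1, 14.4 and 19.5 CPM with WT Tconv and at 11.8, 10.98 and 9.02 CPM with HP1a KO Tconv. The groups were separate, with a log2 fold change of -0.65 ± 0.15 (SE), an edgeR adjusted p of 0.209 and a DESeq2 adjusted p of 0.00380, values close to those of Dusp10. Without replicate 3 with WT Tconv it was -0.52 (DESeq2 adjusted p = 0.0619). Styx, a catalytically inactive relative, was at 23.2 ± 0.7 CPM with WT Tconv and 18.8 ± 0.2 CPM with HP1a KO Tconv (SD, n = 3), a log2 fold change of -0.30 (DESeq2 adjusted p = 0.0476, edgeR adjusted p = 0.209). The other Sprouty and Spred genes tested were low and did not overlap between groups: Spry4 was at 0.72 ± 0.13 against 0.26 ± 0.05 CPM (SD), with a log2 fold change of -1.43, and Spred3 at 1.33 ± 0.18 against 0.79 ± 0.11 CPM, with a log2 fold change of -0.75. Their edgeR adjusted p was 0.209 and 0.229, and DESeq2 gave them none. Spry4, highest in replicate 3 with WT Tconv, was at -1.28 without it.

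The cascades that these inhibitors act on had medians near 0. Among 19 genes of the Ras-ERK cascade the median log2 fold change was 0.01, and the kinase gene Mapk3 stood at 0.18 (95% interval -0.07 to 0.42). The Ras activator Sos2 (-0.25) and Braf (-0.23) were lower without overlap and the ERK-activated kinase gene Rps6ka1 (0.30) was higher, with edgeR adjusted p between 0.218 and 0.269, and DESeq2 called none of these. Among 13 Ras GTPase-activating and other inhibitors, 8 were above 0: Rasa3 was higher at 0.37 (DESeq2 adjusted p = 0.0362, edgeR 0.219) and Rasal1 at 0.23, whereas Nf1, the gene of neurofibromin, the partner of Spred1, was at -0.26 (edgeR adjusted p 0.241 for Rasal1 and 0.215 for Nf1). In the p38 and JNK cascade of 18 genes, 12 were below and 6 above 0. DESeq2 called Map2k3, a kinase that activates p38, lower at -0.50 (adjusted p = 0.0147). It called Gadd45g, which binds the kinase above p38 and JNK, higher at 0.57 (adjusted p = 0.0407). Without replicate 2 with HP1a KO Tconv, its highest library, Gadd45g was at 0.32 in edgeR. The JNK gene Mapk8 was at -0.32 (-0.31 without replicate 3 with WT Tconv), and edgeR's adjusted p was 0.219 for Mapk8, 0.229 for Map2k3 and 0.287 for Gadd45g.

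Immediate-early genes and ERK-responsive transcripts had values on both sides of 0. Of 14 immediate-early genes 8 were above and 6 below 0. Fos was at 385, 394 and 402 CPM with WT Tconv and at 418, 476 and 560.1 CPM with HP1a KO Tconv, whereas Egr1 was at 68.7, 72.3 and 57.6 against 51.3, 53.6 and 54.1 CPM. The groups of both genes were separate, Fos being higher (0.30, edgeR adjusted p = 0.263, and 0.18 without replicate 3 with HP1a KO Tconv) and Egr1 lower (-0.32, edgeR adjusted p = 0.221), and Jun overlapped (0.27, edgeR adjusted p = 0.543). Of the 9 ERK-responsive transcripts tested 6 were below 0, with a median of -0.23. Emp1, a membrane protein gene, was at -0.52 (DESeq2 adjusted p = 0.0179, edgeR 0.209), Phlda1 at -0.30 and the receptor gene Epha2 at -1.65, the last at 0.46 ± 0.23 against 0.15 ± 0.05 CPM (SD), with an edgeR adjusted p of 0.266 for Phlda1 and 0.229 for Epha2. Epha2 was at -1.16 without replicate 3 with WT Tconv. Cbx5 itself, which the Treg of both groups carry intact, was at -0.17 (edgeR adjusted p = 0.534).

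**Figure D5:**
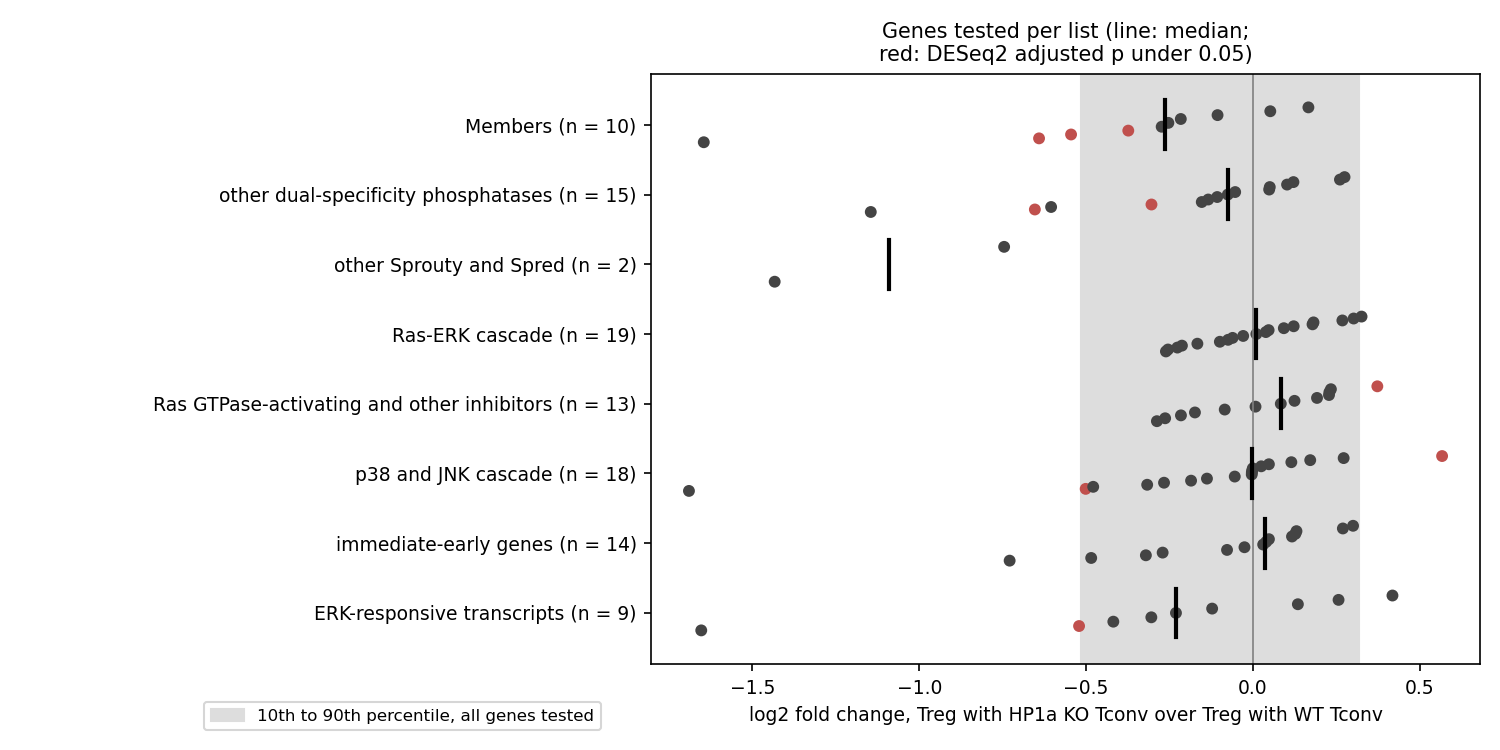
The horizontal axis is the edgeR log2 fold change of Treg with HP1a KO Tconv over Treg with WT Tconv, with 1 dot per gene, a black line at each list's median and grey from the 10th to the 90th percentile of all genes tested (-0.51 to 0.32). The members have a median of -0.26 and 3 dots called by DESeq2. The medians of the other lists run from -1.09 (other Sprouty and Spred, 2 genes) to 0.08 (Ras GTPase-activating and other inhibitors). That of the ERK-responsive transcripts lies at -0.23 and that of the Ras-ERK cascade at 0.01.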

How the data were processed

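RNA of Treg sorted from spleen was made into stranded total RNA libraries and sequenced by the authors. They ran the nf-core RNA-seq pipeline, with STAR, Salmon and the GRCm39 build (Ensembl annotation), and deposited 1 table of estimated counts per gene, in whole numbers and not normalized, for 6 libraries (3 per group). The strand setting of the counting is not given in the sources used here. The main test was the quasi-likelihood F-test of edgeR 4.0.16 in R 4.3.3 (TMM scaling, filterByExpr, robust fit, group as the only term) with Benjamini-Hochberg adjustment over 18321 genes at 0.05. The study used DESeq2 (version 1.42.0 here), run as an alternative, as was limma 3.58.1. CPM are counts scaled to a total of 1000000, after TMM for the levels of single genes and without TMM for marker levels, sums over the members, levels per kilobase and counting intervals. The scripts were tested on simulated data. Positions, lengths and overlaps come from GENCODE for GRCm39, which held 28839 of the gene IDs. A search with BLAST found no copy elsewhere at 95% identity over 200 bases. Members, lists and tests were chosen with earlier results of these data known. Of each list, up to 4 genes with the smallest unadjusted p under 0.05, groups that do not overlap and a mean count of at least 10 were named, and Fos, Jun, Egr1 and Mapk3 in any case; some genes that the rule names are not reported here. The lists without a value in the text (macrophage or monocyte, B cell, CD8 T cell, dendritic or NK cell markers) summed to 287 to 455, 25.6 to 36.2, 5.82 to 8.85 and 4.00 to 8.35 CPM over the libraries. No 2 libraries of the same group were alike within counting error.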

Additional observations from a re-analysis of the deposited data

How the results depend on the processing

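No member was called in any edgeR or limma setting, whether robust estimation, quasi-likelihood method, scaling, filter or replicate was changed. The number of genes called, 0 in the main test, was 1 with upper quartile scaling, 38 with no filter beyond 1 count, 526 with DESeq2 and 198 with DESeq2 and a GC content offset, the last chosen after seeing the data. For members these DESeq2 counts were 3 and 2 (Dusp4 and Dusp10 with the offset), and for the other pathway genes 6 and 2. Without 1 replicate at a time, edgeR called 0 to 2 genes and 0 members or pathway genes. DESeq2 without 1 replicate at a time, also added after seeing the data, called 181 to 1413 genes, 0 to 4 members and 1 to 14 pathway genes. It called 0 members without replicate 2 or replicate 3 with WT Tconv, and the largest counts came without replicate 2 with HP1a KO Tconv. The log2 fold changes that turned, always near 0, were those of Dusp2 (-0.020 in edgeR and -0.024 in DESeq2 without replicate 2 with HP1a KO Tconv, up to 0.26 without another replicate) and Spry1 (-0.0061 in edgeR and -0.0111 in DESeq2 without that replicate, -0.0082 in DESeq2 without replicate 1 with WT Tconv, up to 0.097 without another). The cause was not tested. Of the pathway genes called by DESeq2, calls were also lost without replicate 1 with WT Tconv (Styx, Emp1, Gadd45g and Rasa3, adjusted p 0.0567 to 0.246), replicate 2 with WT Tconv (Styx, Emp1, Gadd45g and Map2k3, adjusted p 0.0681 to 0.229), and with HP1a KO Tconv replicate 1 (Rasa3, adjusted p 0.156), replicate 2 (Gadd45g, adjusted p 0.111) or replicate 3 (Emp1, Gadd45g, Rasa3 and Map2k3, adjusted p 0.0511 to 0.0961). The DESeq2 log2 fold changes of these genes without 1 replicate ranged from -0.33 to -0.28 for Styx, from -0.65 to -0.39 for Emp1, from -0.66 to -0.38 for Map2k3, from 0.28 to 0.45 for Rasa3 and from 0.31 (without replicate 2 with HP1a KO Tconv) to 0.68 for Gadd45g. With the replicate number as a replicate block, edgeR called 1 gene and 0 members. Deviations from the group means correlated at -0.04, 0.18 and 0.12 between libraries of the same number. Between libraries of different number they correlated at -0.22 to 0.12. As the deviations within a group sum to 0, these values do not settle whether the numbers mark pairs. The main test had group as its only term. No scaling moved the median of all genes by over 0.1. With 3 libraries per group, the spread between libraries exceeds counting error for every member, and Spry2 has only 7 to 155 counts in a library.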
